A study of Mus musculus with 3 samples.

Results

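Sertoli cells with transcripts of Fstl3, Gdf15, Cidea, Omp and Edn1 were described in neonatal mouse testis. A cell was taken as a member when the UMIs (unique molecular identifiers, each a counted transcript) of the 5 genes summed to at least 2. It also had to carry at least 3 UMIs of the Sertoli genes Amh, Sox9, Cldn11 and Inha, and had to stay under set limits for stromal, steroidogenic, germ cell and proliferation genes. This rule took 1517 of the 14422 cells and 1517 of the 3732 cells that passed all of its other criteria, which are called Sertoli cells here. They were compared with the 1348 Sertoli cells that held 0 UMIs of the 5 genes. Since these values chose the cells, the levels of the 5 genes and of the 21 other genes of the rule are a description and carry no test.

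Testes of 3 genotypes were profiled with 10x Genomics 3′ version 2 chemistry, with 1 library each. Cdk2-Y15S carries the YS allele of Cdk2, a change of an inhibitory tyrosine to serine, and was taken to be homozygous since Cdk2-HET is the heterozygote, while Cdk2-WT is wild type. All were untreated males at postnatal day 3 (3.5 days post partum for the dissection) on a background mixed from B6(Cg)-Tyrc-2J/J and FVB/NJ, and all testes were dissociated with trypsin/EDTA and DNase I. How many animals went into each library is not stated, and with 1 library per genotype no difference between genotypes has a replicate check or a test. The comparison of members with Sertoli cells at 0 UMIs lies within each library, so the 3 libraries served as its replicates.

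Sertoli cells line the seminiferous cords, nourish the germ cells and, in the neonate, still divide while they secrete anti-Müllerian hormone and inhibin. Follistatin-like 3 (Fstl3) is a secreted protein that binds and blocks activins, which act on Sertoli cell growth. GDF15 is a secreted relative of the TGF-beta family that rises in stressed cells, CIDEA is a lipid droplet protein best known from brown fat, endothelin-1 (Edn1) is a vasoactive peptide, and olfactory marker protein (Omp) is known from olfactory neurons, where it bears on cyclic AMP signalling.

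The promoters of the rule genes, and of Nr0b1, the Sertoli transcription factor gene with the largest difference in the list described below, are shown because these genes mark or differ most in the cells described. Promoter windows were taken from RefSeq on GRCm38.p6, from 250 bases before to 50 bases after a start, for the 4 of 6 genes that matched (Fstl3, Gdf15, Edn1 and Nr0b1, not Cidea or Omp). Capitals mark matches, on either strand, to 8 motifs: the TATA box TATAAA, the CCAAT box CCAAT, the GC box GGGCGG, the AP-1 site TGANTCA, the cyclic AMP response element TGACGTCA, the nuclear receptor half-site AGGTCA, the E-box CACGTG and the GATA site AGATAA. The GC box matches of Fstl3 overlap in 2 pairs, with first bases at -66 and -61 and at -45 and -41 from the start.
Fstl3, chr10:79777024-79777323, plus strand: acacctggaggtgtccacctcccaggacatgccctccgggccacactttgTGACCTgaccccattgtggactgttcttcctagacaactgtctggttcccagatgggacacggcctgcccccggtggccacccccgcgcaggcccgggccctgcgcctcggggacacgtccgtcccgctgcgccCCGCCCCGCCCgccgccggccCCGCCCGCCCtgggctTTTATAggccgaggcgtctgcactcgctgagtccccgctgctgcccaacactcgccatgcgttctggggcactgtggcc
Gdf15, chr8:70632046-70632345, minus strand: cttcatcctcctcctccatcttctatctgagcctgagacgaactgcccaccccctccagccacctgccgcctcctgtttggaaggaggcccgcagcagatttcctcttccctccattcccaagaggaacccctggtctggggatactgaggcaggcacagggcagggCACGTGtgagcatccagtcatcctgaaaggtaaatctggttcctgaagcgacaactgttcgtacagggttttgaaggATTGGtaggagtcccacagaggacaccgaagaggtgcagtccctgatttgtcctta
Edn1, chr13:42301226-42301525, plus strand: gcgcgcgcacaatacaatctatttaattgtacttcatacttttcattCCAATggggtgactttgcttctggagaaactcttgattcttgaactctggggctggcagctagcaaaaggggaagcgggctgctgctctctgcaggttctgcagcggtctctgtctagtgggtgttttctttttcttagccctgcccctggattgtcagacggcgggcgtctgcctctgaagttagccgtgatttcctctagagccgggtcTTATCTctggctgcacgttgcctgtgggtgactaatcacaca
Nr0b1, chrX:86191525-86191824, plus strand: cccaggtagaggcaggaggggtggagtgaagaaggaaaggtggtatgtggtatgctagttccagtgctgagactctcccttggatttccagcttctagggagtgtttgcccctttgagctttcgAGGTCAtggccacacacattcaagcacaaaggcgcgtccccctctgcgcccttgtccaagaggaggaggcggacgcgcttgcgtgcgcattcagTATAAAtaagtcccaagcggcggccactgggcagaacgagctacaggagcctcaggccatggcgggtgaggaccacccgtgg
The Fstl3 window held 1 TATA box match (TATAAA, read as TTTATA here), 4 matches to the GC box GGGCGG and 1 to the nuclear receptor half-site AGGTCA. The Nr0b1 window also held a TATA box match and a half-site match, and among all 32851 windows of the table these letters occurred in 13.6% (TATAAA), 35.7% (GGGCGG) and 16.3% (AGGTCA). The Gdf15 window shown, at the second start of the gene, held the E-box CACGTG (7.15% of all windows) and a CCAAT box (37.4%). The Gdf15 window at the first start, which is not shown, held a half-site match (AGGTCA) at -55. The Edn1 window held a CCAAT box and the GATA site AGATAA (11.2%). TGANTCA, the AP-1 site (7.81% of all windows), and TGACGTCA, the cyclic AMP response element (1.79%), were not among the letters of the 4 windows shown.

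Members made up a graded range of UMIs, with many cells close to the threshold. Of the 1517 members, 574 (37.8%) held exactly 2 UMIs of the 5 genes, just inside the threshold, and 867 further Sertoli cells held 1 UMI, just outside it. The highest sum in a member was 14 UMIs in Cdk2-Y15S, 18 in Cdk2-HET and 20 in Cdk2-WT. UMIs of only 1 of the 5 genes were found in 362 members, of 2 genes in 685, of 3 in 317, of 4 in 127 and of all 5 in 26. Edn1 gave 37.1% of the 5 genes' UMIs in members, Fstl3 19.7%, Gdf15 19.1%, Cidea 13.0% and Omp 11.04%. At least 1 UMI was found in 69.2% of members for Edn1, 46.1% for Fstl3, 45.0% for Gdf15, 30.5% for Cidea and 28.1% for Omp.

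**Figure D1:**
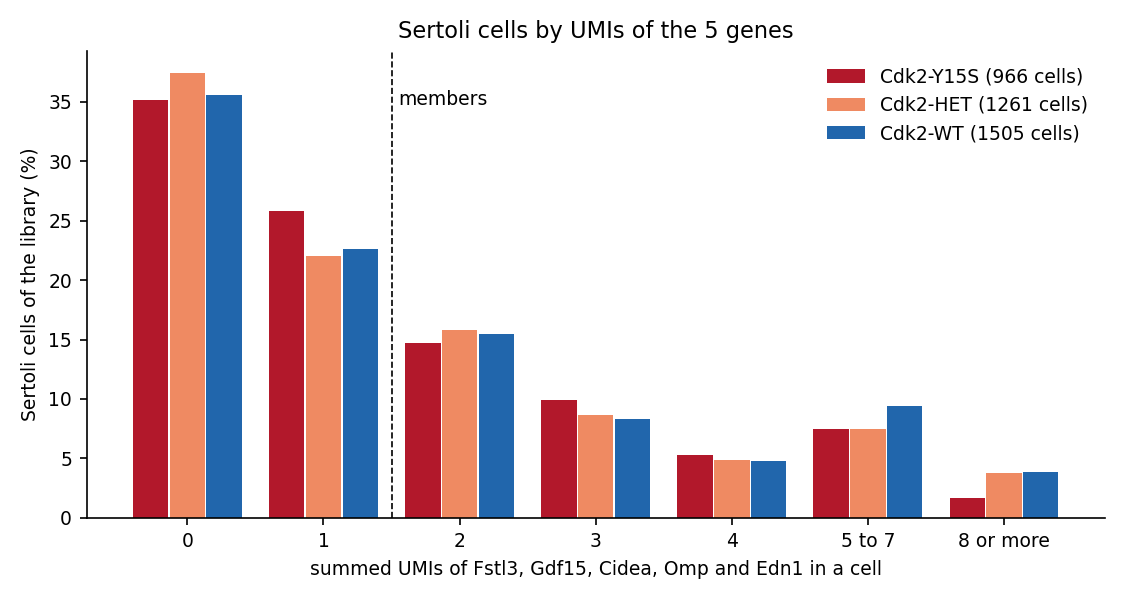
Share of Sertoli cells of each library (y axis, percent) by the summed UMIs of the 5 genes in a cell (x axis); members lie right of the dashed line. Counts fell off without a gap on either side of the threshold, and 574 of the 1517 members held exactly 2 UMIs.

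Members had Sertoli markers well above the level of all other cells, and below that of Sertoli cells with 0 UMIs. The marker list includes Amh, Sox9, Cldn11 and Inha, whose UMIs the rule required. The contrast with all other cells was thus partly set by the rule. Summed over 20 Sertoli markers, members had 13847 to 15631 CPM (the UMIs of a gene scaled to the total UMIs of its group of cells), against 16216 to 17948 CPM in Sertoli cells with 0 UMIs and 4144 to 5370 CPM in all other cells. Wt1, a transcription factor of the Sertoli lineage that the rule did not use, stood at 321, 283 and 309 CPM in members of Cdk2-Y15S, Cdk2-HET and Cdk2-WT, against 331, 286 and 296 CPM at 0 UMIs. Dmrt1, another such factor, stood at 134, 135 and 127 CPM against 137, 139 and 128 CPM. The groups overlapped for both genes. Of the 15 markers tested beyond the rule, however, 8 were lower in members (Cst9 at log2 -0.71, Clu at -0.34, Rhox8, Aard, Mro, Gatm, Ptgds and Ctsl) and 2 were higher (Defb36 and Nr5a1). Among all genes tested, 3.33% were lower and 4.41% higher.

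Marker lists of stroma, myoid, fetal Leydig, blood and germ cells were lower in members than in all other cells. Of these lists the rule itself limited Col1a1, Col1a2, Col3a1 and Dcn (stroma), Cyp11a1, Cyp17a1 and Hsd3b1 (Leydig), and Ddx4 and Dazl (germ). For these 3 lists the contrast with all other cells was therefore partly set by the rule. The interstitial stroma list summed to 73.4 to 133 CPM in members, against 88.8 to 142 CPM at 0 UMIs and 3552 to 5972 CPM in all other cells, and the peritubular myoid list to 83.3 to 117 CPM, against 96.5 to 139.5 and 1708 to 2073 CPM. The fetal Leydig list summed to 289 to 537 CPM in members, against 330.0 to 514 CPM at 0 UMIs and 426 to 652 CPM in all other cells. Most of it in members was Hsd17b3, a testosterone-forming enzyme, at 269, 426 and 517 CPM, against 315, 436 and 494 CPM at 0 UMIs. In all other cells Hsd17b3 was lower, at 82.4, 137 and 168 CPM, unlike the list as a whole. Cyp11b1 was at 0 in members. The macrophage list summed to 6.61 to 17.6 CPM in members, against 9.72 to 100.2 CPM at 0 UMIs, and the erythroid list to 7.001 to 14.9 CPM, against 25.8 to 828 CPM. Germ cell markers summed to at most 5.70 CPM in members with Dppa3, Nanos2, Piwil4 and Tdrd1 at 0, and the authors' germ cell table, which covers Cdk2-Y15S and Cdk2-WT, held 0 of the members. The lymphoid list summed to at most 0.248 CPM in members, with Cd3e, Cd79a, Il7r, Ms4a1 and Nkg7 at 0.

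Members were deeper than the cells they were compared with, which bears on a rule that counts UMIs. Their median was 6096 UMIs in Cdk2-Y15S, 6161 in Cdk2-HET and 6166 in Cdk2-WT, against 5304, 5321 and 4820.5 in Sertoli cells with 0 UMIs. Mitochondrial transcripts made up a median of 6.08% to 6.82% of a member's UMIs, against 5.79% to 6.59% at 0 UMIs. The 3 libraries held 4403, 4958 and 5061 cells and 28651691, 32025077 and 30624473 UMIs (Cdk2-Y15S, Cdk2-HET, Cdk2-WT), and 87 barcode sequences occurred in more than 1 library. Results are also given for 261, 349 and 387 pairs of members and 0-UMI cells whose UMIs differed by at most 2%, where they changed a call.

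The share of Sertoli cells that were members was 39.0% in Cdk2-Y15S (95% Clopper-Pearson interval 35.9 to 42.2, counting error only), 40.5% in Cdk2-HET (37.8 to 43.3) and 41.8% in Cdk2-WT (39.3 to 44.3). These intervals overlapped. Each cell was also thinned to 4000 UMIs and the whole rule applied again, which left out 18.5%, 20.8% and 27.5% of the Sertoli cells as too shallow and let in others whose UMIs then fell within the limits. The shares were then 29.7% of 950 cells in Cdk2-Y15S, 30.6% of 1149 in Cdk2-HET and 35.7% of 1244 in Cdk2-WT. Their intervals were 26.8 to 32.7, 27.98 to 33.4 and 33.03 to 38.4, in the same order. After thinning, the intervals of Cdk2-Y15S and Cdk2-WT did not overlap. At 3 or more UMIs the shares were 24.3%, 24.7% and 26.3%. With 1 library per genotype, genotype and library cannot be told apart.

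The levels of the 5 rule genes in members are a description, since these UMIs chose the cells, and each genotype is 1 library. Cidea had 101 CPM in Cdk2-Y15S members (95% Poisson interval 88.8 to 114), 95.01 in Cdk2-HET (84.9 to 106) and 45.6 in Cdk2-WT (39.3 to 52.7). Gdf15 had 65.0 CPM in Cdk2-Y15S members (55.5 to 75.6), 117 in Cdk2-HET (106 to 129) and 139 in Cdk2-WT (128 to 151). Cidea was lowest in the Cdk2-WT library and Gdf15 lowest in the Cdk2-Y15S library. Edn1 had 189 CPM in Cdk2-Y15S members (172 to 206), 209 in Cdk2-HET (194 to 225) and 243 in Cdk2-WT (228 to 259). Omp had 56.8 CPM (47.9 to 66.8), 58.1 (50.2 to 66.8) and 75.6 (67.4 to 84.6) in the same order, and Fstl3 108 CPM (95.8 to 122), 115 (104 to 127) and 121 (111 to 133). Edn1 and Omp were thus highest in the Cdk2-WT library, with a smaller gap between the lowest and the highest library than Cidea or Gdf15, and the intervals of Fstl3 overlapped. Over all Sertoli cells, before the threshold was applied, a Cidea UMI was found in 18.2% of Cdk2-Y15S, 16.4% of Cdk2-HET and 8.77% of Cdk2-WT cells, and a Gdf15 UMI in 18.01%, 27.04% and 26.5%.

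The 5 genes were not confined to Sertoli cells of the rule. Among all cells outside them, a Fstl3 UMI was found in 10.7%, 10.8% and 12.3% of cells of Cdk2-Y15S, Cdk2-HET and Cdk2-WT, an Edn1 UMI in 9.83%, 11.3% and 13.7% and a Gdf15 UMI in 6.20%, 9.22% and 11.1%. A Cidea UMI was found in 7.94%, 8.60% and 4.98% of them and an Omp UMI in 5.06%, 4.95% and 6.41%. These cells include those kept out only by the limits of the rule. In cells with over 20 stromal UMIs and 0 UMIs of the Sertoli genes, an Edn1 UMI was found in 0.694%, 0.475% and 0.985% of cells of Cdk2-Y15S, Cdk2-HET and Cdk2-WT. Whether UMIs of the 5 genes in these cells were free RNA or their own transcripts was not tested. The demand for 0 Sertoli UMIs also keeps out cells that hold free RNA of the Sertoli genes. The shares were 0.867%, 0.856% and 0.844% for Gdf15 and 0.867%, 0.380% and 0.141% for Cidea. Omp was found in 0.173% and 0.380% of these cells in Cdk2-Y15S and Cdk2-HET and in 0 of 711 in Cdk2-WT, which allows a share of up to 0.422%. Fstl3 was found in 3.90%, 5.70% and 10.3% of them, against 23.1%, 20.4% and 22.1% of Sertoli cells. Median depths were 5526, 5708 and 5373 UMIs in the stromal cells, against 5722.5, 5872 and 5761 in Sertoli cells.

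A UMI of one of the 5 genes was more frequent among Sertoli cells with a UMI of another than among those without it. The genes were chosen on these cells, so this is a description. For each pair, the share of Sertoli cells with a UMI of one gene was taken among cells with a UMI of the other and among cells without it. The first share was higher in all 30 combinations of pair and library, with a median ratio of 1.71 over both orders of each pair (1.12 to 6.37). The closest pair was Fstl3 and Cidea: among cells with Fstl3, Cidea was found in 42.2% in Cdk2-Y15S, 41.6% in Cdk2-HET and 25.5% in Cdk2-WT. Among cells without Fstl3 it was found in 11.04%, 9.96% and 4.01%. Omp and Edn1 were the loosest pair, with ratios down to 1.12 in Cdk2-Y15S. Deeper cells hold more UMIs of any gene, and at 4000 UMIs per cell the ratio was above 1 in 27 of 30, with a median of 1.45 (0.902 to 5.54), and the other 3 all involved Omp.

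Each gene was also read in cells chosen by the other 4. Since all 5 were picked together on these cells, the differences are a description and carry no test. Cidea, the lipid droplet gene, stood at 79.99 CPM in Cdk2-Y15S, 81.2 in Cdk2-HET and 42.1 in Cdk2-WT in cells with 2 or more UMIs of the other 4, against 18.5, 10.7 and 4.49 CPM in cells with 0 (log2 2.67, 6.35-fold). No library of the low group reached any of the high group. Fstl3, the activin antagonist, stood at 88.1, 95.1 and 99.2 CPM against 26.9, 23.1 and 29.2 CPM (log2 1.84, 3.59-fold), with no overlap.

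Omp, Gdf15 and Edn1 had smaller differences. Omp stood at 38.3, 43.6 and 60.5 CPM in cells chosen by the other 4 genes, against 24.1, 17.997 and 21.1 CPM at 0, in the order Cdk2-Y15S, Cdk2-HET and Cdk2-WT (log2 1.23). Gdf15, the stress cytokine, stood at 43.1, 87.0 and 108 CPM against 31.7, 50.1 and 49.6 CPM (log2 0.89). Its groups overlapped across libraries, since Gdf15 in Cdk2-Y15S was below the other libraries in both groups, and within each library it was higher in the chosen cells. Edn1 stood at 141, 140.04 and 170.00 CPM against 84.7, 94.3 and 112 CPM, without overlap (log2 0.64). With cells chosen in these 5 ways, edgeR called 3.35% (rule without Fstl3), 5.33% (without Gdf15), 4.03% (without Cidea), 4.33% (without Omp) and 5.99% (without Edn1) of all genes tested higher. In pairs matched on UMIs the differences were log2 2.78 for Cidea, 2.05 for Fstl3, 1.146 for Omp, 0.94 for Gdf15 and 0.61 for Edn1.

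**Figure D2:**
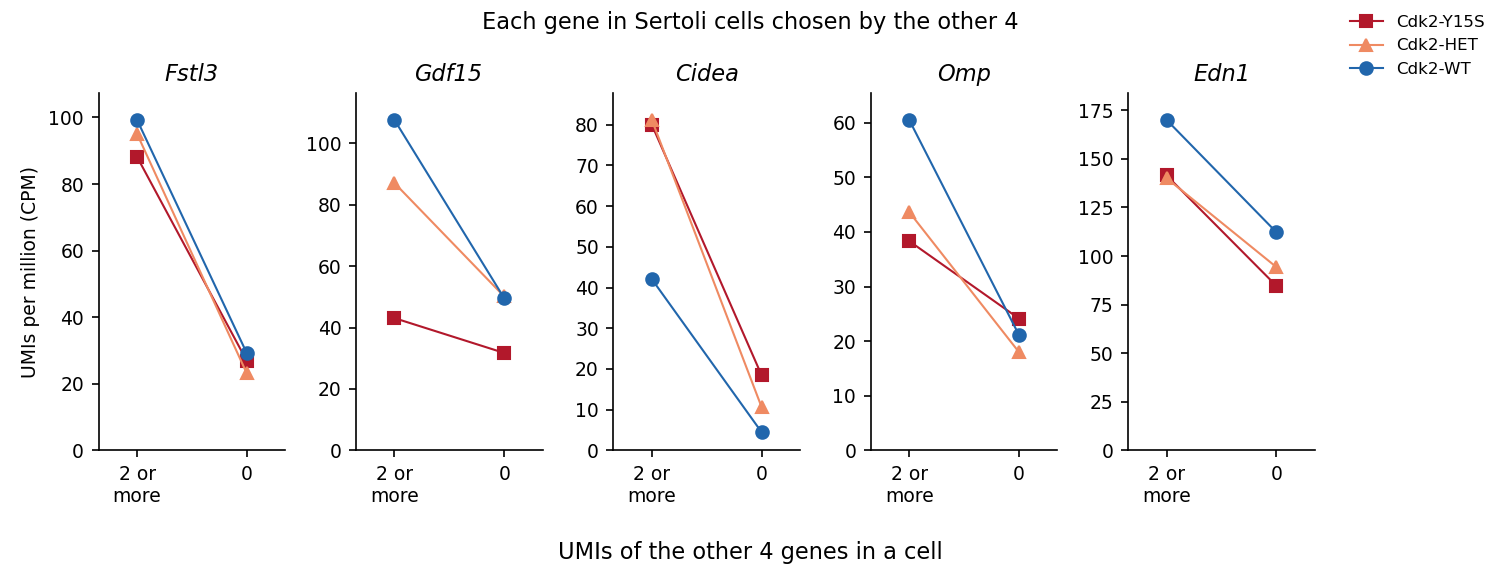
Level of each gene (y axis, CPM, from 0) in Sertoli cells with 2 or more UMIs of the other 4 genes (left of each panel) and with 0 (right), 1 line per library. Every line falls to the right, most steeply for Cidea (log2 2.67) and Fstl3 (log2 1.84) and least for Edn1 (log2 0.64).

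Across all other genes, members differed from Sertoli cells with 0 UMIs mainly in small steps. Of 10341 genes tested outside the rule, edgeR called 800 (7.74%), of which 456 were higher in members (4.41%) and 344 lower (3.33%), at an adjusted p of at most 0.05, with a median log2 difference of -0.002 over all of them. Libraries did not overlap for 5.88% of the genes tested on the higher side and 5.79% on the lower side. The 15 highest genes were picked among called genes with the same direction in every library, so that agreement was set by the choice. For 13 of the 15 the groups did not overlap.

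Rdh10, the retinol dehydrogenase that makes retinaldehyde, had the highest difference. It stood at 36.9, 30.7 and 25.05 CPM in members of Cdk2-Y15S, Cdk2-HET and Cdk2-WT, against 6.86, 4.58 and 5.36 CPM at 0 UMIs (log2 2.46, SE 0.20, adjusted p = 1.8e-16, edgeR, n = 3 libraries). All members' values were above all others. Tgm2, a transglutaminase that crosslinks proteins and is induced by retinoic acid in other cells, stood at 40.4, 30.4 and 25.8 CPM against 5.72, 5.41 and 6.51 CPM (log2 2.40, SE 0.20, adjusted p = 2.2e-16, edgeR). Stra6, the receptor that takes up retinol from its carrier, stood at 22.6, 13.7 and 10.2 CPM against 10.3, 3.33 and 3.45 CPM (log2 1.4995, SE 0.25, adjusted p = 4.9e-06, edgeR). Its groups overlapped, because the 0-UMI cells of Cdk2-Y15S lay just above the members of Cdk2-WT, while each library on its own was higher in members.

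Nr0b1 (DAX1), a nuclear receptor that restrains steroidogenic factor 1 and takes part in testis formation, stood at 42.4, 48.5 and 44.1 CPM in members, against 11.4, 17.1 and 11.9 CPM at 0 UMIs (log2 1.74, SE 0.15, adjusted p = 3.8e-16, edgeR). Uchl1, a neuronal ubiquitin hydrolase that Sertoli cells can also carry, stood at 72.3, 54.2 and 57.0 CPM against 18.9, 7.49 and 17.2 CPM (log2 2.08, SE 0.14, adjusted p = 1.2e-20, edgeR). Neither gene overlapped between groups. Lgals1, which encodes the sugar-binding protein galectin-1, was by far the most abundant of the 15, at 2403, 2355 and 2059 CPM against 914, 952 and 877 CPM (log2 1.31, SE 0.03, adjusted p = 1.2e-50, edgeR). Its members' values lay close together and far above those at 0 UMIs.

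The other 9 of the 15 were less abundant. Camk1d, a calcium/calmodulin-dependent kinase, stood at 19.8, 27.7 and 29.3 CPM in members against 5.15, 8.74 and 8.04 CPM (log2 1.80, adjusted p = 1.4e-11, edgeR). Cox6a2, a muscle-type subunit of cytochrome c oxidase, stood at 15.6, 17.9 and 19.6 CPM against 6.29, 4.58 and 5.74 CPM (log2 1.71), and Shc2, a signalling adaptor, at 33.4, 22.9 and 24.8 CPM against 10.9, 7.49 and 10.3 CPM (log2 1.48). These 3 genes showed no overlap. Insc, an adaptor of spindle orientation (log2 1.79), Bspry (1.71), the extracellular superoxide dismutase Sod3 (1.63), the epithelial adhesion molecule Epcam (1.46), the phosphatase Dusp8 (1.45) and Stac2 (1.30) stood at 5.21 to 26.5 CPM in members and 1.25 to 8.32 CPM at 0 UMIs, and of these 6 only Epcam overlapped between groups.

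**Figure D3:**
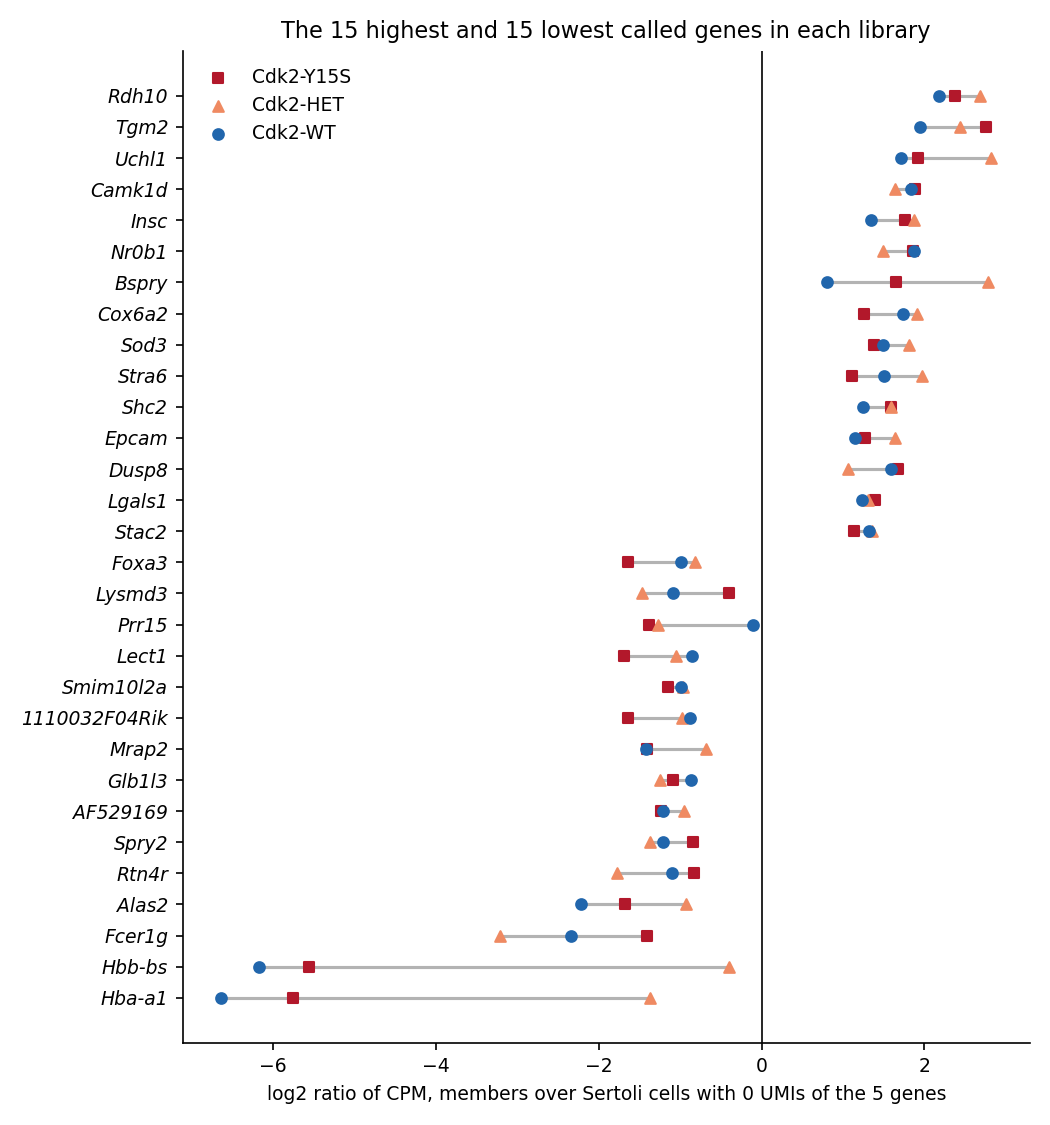
Log2 ratio of CPM, members over Sertoli cells with 0 UMIs (x axis), in each of the 3 libraries for the 15 highest and 15 lowest called genes (rows, ordered by the edgeR estimate). Every point of a gene lies on the same side of 0, as the choice of genes required. The globin genes Hba-a1 and Hbb-bs lie between -5.55 and -6.63 in Cdk2-Y15S and Cdk2-WT, and at -1.38 and -0.41 in Cdk2-HET.

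The lower side was led by genes of blood cells that single cells carried. Hba-a1, an alpha globin, stood at 1.94, 0.893 and 2.48 CPM in members, against 115, 2.50 and 258 CPM at 0 UMIs (log2 -6.18), and Hbb-bs, a beta globin, at 1.56, 5.66 and 6.94 CPM against 81.8, 7.49 and 508 CPM (log2 -5.44). One Cdk2-Y15S cell gave 199 of the 201 Hba-a1 UMIs at 0 UMIs of that library, and 1 Cdk2-WT cell gave 666 of 675. Fcer1g, a macrophage receptor subunit (log2 -2.79), rested on 49 of 56 UMIs from 1 Cdk2-HET cell. Without the cells that carried 5 or more globin or 3 or more macrophage UMIs, an alternative chosen after seeing the data, Hbb-bs was no longer called (log2 -0.06, adjusted p = 0.96, edgeR), and Hba-a1 and Fcer1g had too few UMIs to be tested. Alas2, the erythroid enzyme of heme synthesis, was still called lower (adjusted p = 0.017, edgeR; log2 -1.43 with those cells).

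The other genes of the lower side fell by about a factor of 2. Rtn4r, the Nogo receptor, stood at 5.45, 6.25 and 9.42 CPM in members, against 9.72, 21.6 and 20.3 CPM at 0 UMIs (log2 -1.29, SE 0.22, adjusted p = 4.9e-06, edgeR), with no overlap. Spry2, an inhibitor of receptor tyrosine kinase signalling, stood at 8.56, 6.85 and 8.43 CPM against 15.4, 17.9 and 19.5 CPM (log2 -1.16), with no overlap, but in pairs matched on UMIs its difference was -0.59 and not called (adjusted p = 0.23, edgeR). Lect1, also named chondromodulin, stood at 4.67, 17.6 and 22.6 CPM against 15.4, 36.6 and 41.0 CPM (log2 -1.02), with overlap between libraries and a lower value in members of each. AF529169, Glb1l3, Mrap2, 1110032F04Rik, Smim10l2a, Prr15, Lysmd3 and Foxa3 lay between log2 -0.99 and -1.14. Prr15 and Foxa3 were no longer called in pairs matched on UMIs (-0.43 and -0.65, adjusted p = 0.66 and 0.24, edgeR), and Prr15, Glb1l3 and Lysmd3 lost their call without Cdk2-HET, Prr15 also without Cdk2-Y15S and Foxa3 without Cdk2-WT.

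For most of the 15 highest and 15 lowest genes, the difference grew with the number of UMIs of the 5 genes. These genes were chosen by their difference between members and cells with 0 UMIs, so part of this trend was built in. Its share over all genes was not taken. Lgals1 averaged 914 ± 37.4 CPM in Sertoli cells with 0 UMIs, 1224 ± 185 at 1, 1666 ± 105 at 2, 2145 ± 578 at 3, 2559 ± 445 at 4, 2771 ± 87.0 at 5 to 7 and 3244 ± 344 at 8 or more (SD, n = 3 libraries). Nr0b1 averaged 13.5 ± 3.13 CPM at 0, 21.5 ± 5.20 at 1, 26.97 ± 5.59 at 2, 38.8 ± 2.19 at 3, 52.1 ± 17.7 at 4, 60.6 ± 1.76 at 5 to 7 and 78.4 ± 10.9 at 8 or more. Both genes were thus graded across the threshold of the rule. Of the 15 highest genes, 13 had a mean at 1 UMI between those at 0 and 2, and 15 were higher at 8 or more than at 2. Of the 15 lowest, 13 had a mean at 1 UMI between the 2, and 15 were lower at 8 or more than at 2. Some of these were nearly level at 2 and at 8 or more: Spry2 (8.77 and 8.76 CPM), Hba-a1 (1.49 and 1.47) and Hbb-bs (5.07 and 4.99). The most extreme mean was at 8 or more for 13 of the 15 highest and 11 of the 15 lowest genes. The means of the 15 lowest at 8 or more rested on few UMIs over the 3 libraries. These ranged from 1 each for Fcer1g, Alas2, Glb1l3 and Prr15 to 14 for 1110032F04Rik. Hba-a1, Rtn4r and Foxa3 held 2 each, so the counts for the lowest genes lie near the limit of detection. Median depth was 6477 to 9943.5 UMIs in cells with 8 or more UMIs of the 5 genes, against 4820.5 to 5321 in cells with 0. In pairs matched on UMIs, Lgals1 still differed by log2 1.38 and Nr0b1 by 1.83 between members and cells with 0.

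**Figure D4:**
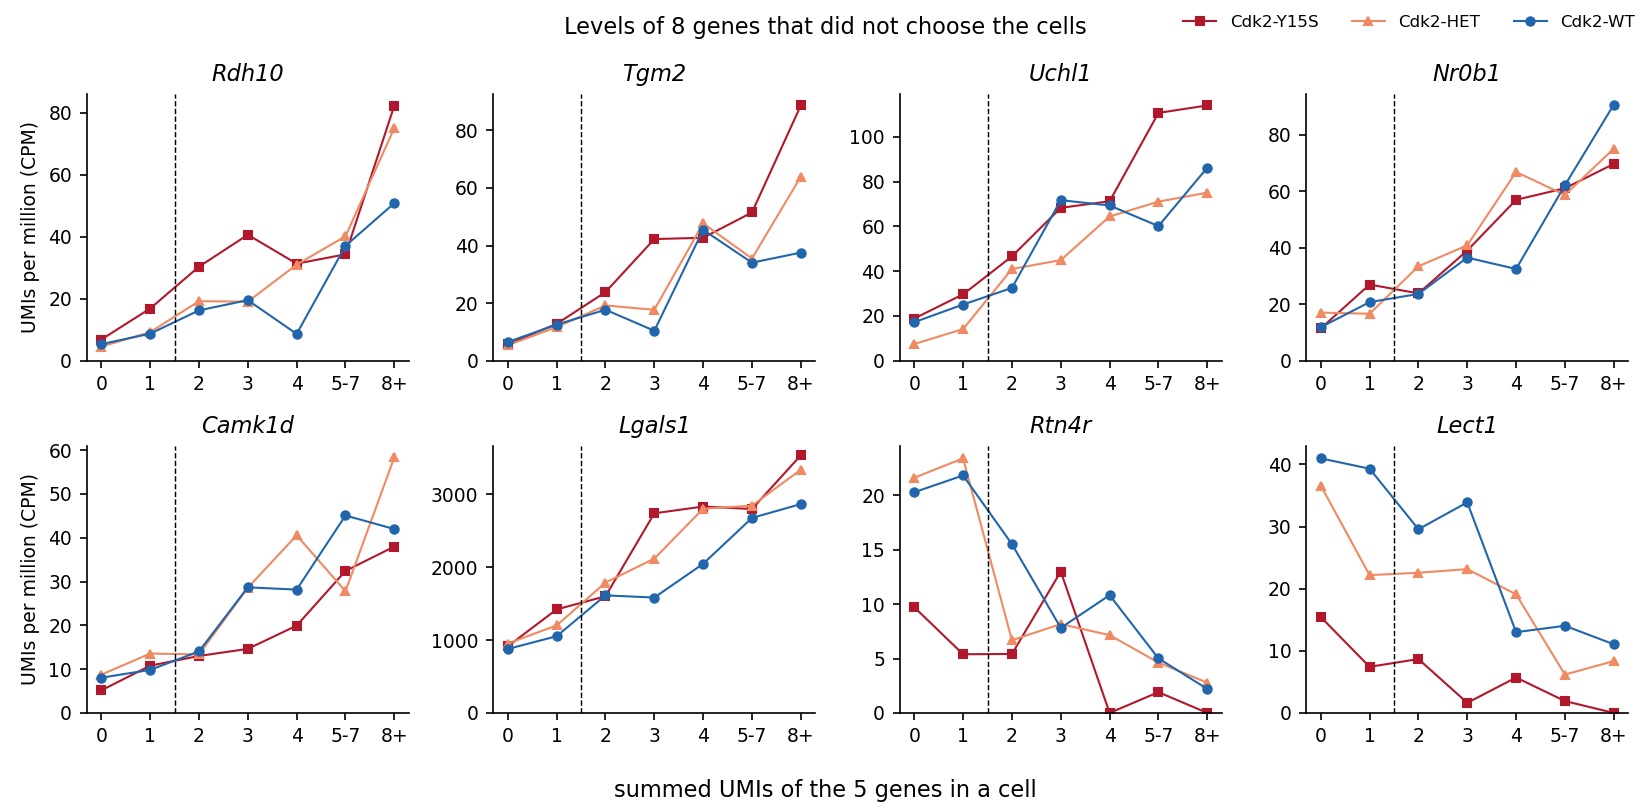
Level of 8 genes that did not choose the cells (y axis, CPM, from 0) in Sertoli cells grouped by the summed UMIs of the 5 genes (x axis), 1 line per library; members lie right of the dashed line. These 8 are among the 15 highest and 15 lowest genes, chosen by their difference between members and cells with 0 UMIs. Rdh10, Tgm2, Uchl1, Nr0b1, Camk1d and Lgals1 have higher means at 8 or more than at 2, and Rtn4r and Lect1 lower ones. At 8 or more, Rtn4r held 2 UMIs and Lect1 8 over the 3 libraries. Lgals1 averaged 914 CPM at 0 and 3244 CPM at 8 or more.

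Transcription factors of the Sertoli lineage were higher or not called in members. Of 12 such genes tested, 3 were higher and 0 lower, against 4.41% higher and 3.33% lower among all genes tested, with a median log2 difference of 0.11. Besides Nr0b1, Gata6, a GATA factor of testicular somatic cells, stood at 124, 127 and 138 CPM against 86.9, 96.1 and 119 CPM (log2 0.36, adjusted p = 0.00024, edgeR). Nr5a1, the gene of steroidogenic factor 1, stood at 99.6, 99.5 and 90.02 CPM against 96.6, 81.5 and 66.3 CPM (log2 0.27, adjusted p = 0.023, edgeR), and was not called without Cdk2-HET or without Cdk2-WT. Gata4, Sox8, Dmrt1 and Wt1 were not called, at log2 0.12, -0.02, -0.02 and 0.01.

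Of 14 niche and hormone genes of Sertoli cells tested, 6 were lower in members, 0 were higher and 8 were not called, with a median of -0.15 (3.33% of all genes tested were lower). Clu, the secreted chaperone clusterin, stood at 1185, 1463 and 1362 CPM in members, against 1486, 1975 and 1646 CPM at 0 UMIs (log2 -0.34, SE 0.03, adjusted p = 7.3e-16, edgeR). Wnt6, a secreted Wnt ligand, stood at 427, 495 and 466 CPM against 583, 626 and 553 CPM (log2 -0.33), and Rhox8, a homeobox gene of Sertoli cells, at 1227, 1228 and 1365 CPM against 1474, 1588 and 1567 CPM (log2 -0.27). None of the 3 overlapped. Gatm, Ptgds and Cst12 were lower too, by at most 0.19 on the log2 scale. The rule genes Amh and Inha stood at 398, 855 and 877 CPM (Amh) and 1692, 2468 and 2486 CPM (Inha) in members, against 476, 1034 and 954 CPM (Amh) and 1899, 2775 and 2672 CPM (Inha).

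Among junction and keratin genes, 2 of 15 tested were higher and 4 lower (4.41% and 3.33% of all genes tested). Cdh2, the adhesion molecule N-cadherin, stood at 49.0, 47.7 and 39.7 CPM in members against 26.9, 20.4 and 24.1 CPM (log2 0.94, SE 0.13, adjusted p = 3.1e-08, edgeR) and Krt18, an epithelial keratin, at 65.0, 61.4 and 75.1 CPM against 44.6, 42.8 and 58.6 CPM (log2 0.46, adjusted p = 0.00051, edgeR). Gja1, the gap junction protein connexin 43, stood at 369, 406 and 400.2 CPM against 515, 512 and 518 CPM (log2 -0.38, SE 0.04, adjusted p = 2.4e-11, edgeR), and Espn, an actin bundler of Sertoli cell junctions, at 133, 105 and 77.6 CPM against 182, 148 and 119.9 CPM (log2 -0.52). Cdh2 and Gja1 did not overlap between groups, Krt18 did not either, and Espn did. Cadm1 (-0.55) and Jam2 (-0.32) were the other lower ones; Cadm1 was not called in matched pairs or without Cdk2-WT. Epcam and Krt18 also stand in the list of rete or epididymal epithelium, in which 2 of 3 genes tested were higher and 0 lower. Krt8, the other one tested, was not called (log2 0.31). Cdh1 and Krt19 were at 0 in members, but Krt19 was also at 0 in cells with 0 UMIs. Both stood at no more than 2.67 CPM in all other cells. That list summed to 123 to 159 CPM in members, against 99.5 to 111 CPM at 0 UMIs and 78.1 to 111 CPM in all other cells.

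Of 12 retinoid and maturation genes tested, 2 were higher and 1 lower, against 4.41% higher and 3.33% lower among all genes tested, with a median of -0.03. Stra6, described above, was among the higher ones. Aldh1a1, which oxidises retinaldehyde to retinoic acid, stood at 702, 907 and 763 CPM in members, against 979.6, 1200.1 and 1093 CPM at 0 UMIs (log2 -0.46, SE 0.03, adjusted p = 8.3e-20, edgeR). It was lower in members of every library, without overlap. Rdh10 is not in this list.

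Of 21 genes tested of the activin, inhibin and TGF-beta pathways, on which Fstl3 acts, 2 were higher, 1 was lower and 18 were not called, against 4.41% higher and 3.33% lower among all genes tested, with a median of -0.03. Smad2, which carries the activin signal to the nucleus, stood at 52.5, 57.2 and 51.3 CPM in members against 31.5, 34.1 and 43.3 CPM, without overlap (log2 0.54, SE 0.11, adjusted p = 0.00033, edgeR). Ltbp1, which holds latent TGF-beta in the matrix, stood at 9.33, 6.85 and 4.22 CPM against 2.86, 1.66 and 2.30 CPM (log2 1.53, adjusted p = 0.0048, edgeR), and was not called without Cdk2-Y15S or without Cdk2-HET. Id1, a target of BMP signalling, stood at 44.7, 47.7 and 127 CPM against 66.9, 57.0 and 149.7 CPM (log2 -0.30, adjusted p = 0.013, edgeR), and was not called without Cdk2-Y15S. Inhbb, the activin beta B subunit, stood at 184, 158 and 174 CPM against 196, 156 and 186 CPM and was not called, and the receptor genes Acvr1b and Acvr2a had differences of 0.04 and -0.19 that were not called.

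Of 17 chaperone and stress genes of the endoplasmic reticulum tested, 7 were lower in members, 0 were higher and 10 were not called, with a median of -0.21 (3.33% of all genes tested were lower). Calr, the calcium-binding chaperone calreticulin, stood at 502, 600.4 and 424 CPM in members, against 770.3, 835 and 644 CPM at 0 UMIs, without overlap (log2 -0.56, SE 0.04, adjusted p = 1.3e-20, edgeR). Hspa5 (BiP) stood at 152, 200.1 and 169.9 CPM against 165, 265 and 216 CPM (log2 -0.31, adjusted p = 6.9e-05, edgeR), and Hsp90b1, its partner in folding, at 326, 329.99 and 211 CPM against 419, 434 and 271 CPM (log2 -0.37, adjusted p = 3.8e-09, edgeR). Both were lower in members of each library, with overlap across libraries. Sdf2l1 (-0.62), Creld2 (-0.40), Pdia4 (-0.36) and Pdia6 (-0.27) were the other 4; Creld2 was not called when any 1 library was left out.

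The integrated stress response, through which cells often induce Gdf15, had 2 of 21 genes higher and 1 lower, against 4.41% higher and 3.33% lower among all genes tested, with a median of 0.01. Trib3, a pseudokinase induced in that response, stood at 4.28, 7.45 and 5.46 CPM in members against 1.72, 1.25 and 1.53 CPM (log2 1.95, SE 0.44, adjusted p = 0.0011, edgeR), and was not called without Cdk2-HET. Atf3, a transcription factor of the same response, stood at 32.7, 16.4 and 37.0 CPM against 16.6, 13.3 and 17.2 CPM (log2 0.87, adjusted p = 4.5e-05, edgeR). When the cells were chosen without Edn1, the Atf3 difference was -0.03 (adjusted p = 0.95, edgeR), so its call was lost with that rule. Atf4 and Ddit3, the central factors of the response, were not called, at log2 0.13 and -0.04. None of the 10 heat shock genes tested was called.

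Of 15 p53 targets tested, 4 were higher, 0 lower and 11 not called, with a median of 0.25 (4.41% of all genes tested were higher). Cdkn1a, the cell cycle inhibitor p21, stood at 17.1, 24.1 and 23.6 CPM in members against 10.9, 12.1 and 11.5 CPM, without overlap (log2 0.94, SE 0.18, adjusted p = 0.00011, edgeR). Phlda3, an inhibitor of AKT, stood at 69.6, 66.7 and 39.7 CPM against 43.5, 52.4 and 29.5 CPM (log2 0.47), and Gadd45a and Btg2, which restrain growth, were higher by 0.42 and 0.41 on the log2 scale. Gdf15 is itself a known p53 target. When the cells were chosen without Gdf15, Cdkn1a and Phlda3 were not called (log2 0.44 and 0.21, adjusted p = 0.12 and 0.24, edgeR), and Phlda3 was not called without Cdk2-Y15S.

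Immediate early genes, which respond within minutes to growth signals and to tissue dissociation, were higher in 9 of 22 tested and lower in 0, with a median of 0.21 (4.41% of all genes tested were higher). Ier3 stood at 97.2, 89.1 and 154 CPM in members against 71.5, 53.7 and 83.9 CPM, without overlap (log2 0.73, SE 0.08, adjusted p = 6.1e-11, edgeR). Klf6 stood at 162, 119 and 178 CPM against 125, 89.8 and 117 CPM (log2 0.49, adjusted p = 9.2e-08, edgeR). Fos, the AP-1 subunit, stood at 401, 301 and 835 CPM against 355, 294 and 666 CPM (log2 0.22), so that the libraries differed more from each other than the groups did. The part of the dissociation in these differences was not tested.

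Hippo pathway targets and matrix genes that were called were higher in members. Of 14 Hippo targets, 3 were higher (4.41% of all genes tested): Ctgf, a matricellular growth factor, at 37.3, 35.1 and 36.2 CPM in members against 21.2, 19.97 and 25.7 CPM (log2 0.69), Cyr61, its relative, at 712, 642 and 1048 CPM against 564, 487 and 775 CPM (log2 0.40), and Fjx1 (log2 0.82). Ctgf did not overlap between groups, Cyr61 and Fjx1 did, and Fjx1 was not called without Cdk2-HET. Of 18 matrix and protease genes, 4 were higher. Plat, the tissue plasminogen activator, stood at 10.1, 8.04 and 5.95 CPM against 2.29, 0.416 and 1.91 CPM (log2 2.36, SE 0.42, adjusted p = 1.5e-05, edgeR). Serpine2, an inhibitor of such proteases, stood at 480.3, 698 and 504 CPM against 375, 475 and 438 CPM (log2 0.38, adjusted p = 1.7e-10, edgeR). Neither overlapped; Nid1 (0.73) and Sparc (0.10) were the others, and Nid1 was not called in matched pairs, without Cdk2-Y15S or without Cdk2-WT.

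Genes of lipid handling, the field of CIDEA, moved both ways: 3 of 13 tested were higher and 2 lower, against 4.41% higher and 3.33% lower among all genes tested, with a median of 0.05. Fabp3, the heart-type fatty acid carrier, stood at 200.3, 196 and 128 CPM in members against 72.1, 91.5 and 62.0 CPM, without overlap (log2 1.19, SE 0.08, adjusted p = 3.4e-22, edgeR). Fabp5, the epidermal-type carrier, stood at 194, 299 and 219 CPM against 265, 414 and 299.9 CPM (log2 -0.45, SE 0.05, adjusted p = 2.2e-11, edgeR), lower in each library. Ucp2, a mitochondrial carrier, was higher by 0.40 without overlap, and Cpt1a, which brings fatty acids into mitochondria, by 0.45, a call lost without Cdk2-Y15S or without Cdk2-HET. Fabp4 was lower by 0.79, a call lost in matched pairs and without Cdk2-HET. Plin2, which coats lipid droplets, was not called, at 28.4, 40.8 and 33.2 CPM against 29.2, 32.9 and 39.4 CPM. None of the 17 cholesterol genes tested was called.

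In endothelin, olfactory and cytokine signalling, 1 of 6, 2 of 9 and 2 of 4 genes tested were called, against 7.74% of all genes tested. Of 6 endothelin and vasoactive genes tested, Nppc, the natriuretic peptide C gene, was lower (log2 -0.64, adjusted p = 0.0099, edgeR), a call lost in matched pairs and without either Cdk2-Y15S or Cdk2-WT. Ece1, which cleaves the endothelin precursor, stood at 57.6, 40.5 and 42.7 CPM in members against 47.5, 40.3 and 41.4 CPM and was not called. Of 9 genes of olfactory transduction and cyclic AMP, Prkar2b, a regulatory subunit of protein kinase A, was higher (log2 0.31, not called without Cdk2-HET) and Bex2 lower (log2 -0.35). Among 4 cytokine genes tested, Tnfrsf12a, the receptor of TWEAK, stood at 336, 339.5 and 270.3 CPM against 205, 163 and 177 CPM, without overlap (log2 0.80, SE 0.06, adjusted p = 1.8e-19, edgeR), and Cxcl1 was higher as well (log2 0.82). Of 13 ERK target and feedback genes, Ier3 and Dusp5 were higher and Spry2 lower, with a median of 0.15; Dusp5 lost its call in matched pairs, without Cdk2-HET and without Cdk2-WT.

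Calls in the metabolic, survival and cell cycle lists can be read against the 7.74% of all genes tested that were called. Of 16 glycolysis and hypoxia genes, 4 were lower by at most 0.21 on the log2 scale and Pfkl, the liver-type phosphofructokinase, was higher, at 68.8, 85.8 and 86.3 CPM in members against 42.9, 53.2 and 53.2 CPM (log2 0.70, SE 0.09, adjusted p = 1.7e-08, edgeR). Of 14 oxidative stress genes, Hmox1 (-0.39) and Gpx1 (-0.32) were lower, of 18 apoptosis genes Bcl2 (0.51) and Mcl1 (0.27) were higher, both lost in matched pairs and when Cdk2-HET was left out (Bcl2 also without Cdk2-Y15S, Mcl1 also without Cdk2-WT), and of 13 mitochondrially encoded genes 3 were higher by at most 0.10. Of 19 S phase genes, Hells was higher (0.33), a call lost in matched pairs, without Cdk2-Y15S and without Cdk2-WT, and of 16 genes of G2 and M phase edgeR called none, with a median of -0.23; the rule itself limits the UMIs of 8 such S and M phase genes in both groups. Cdk2 stood at 61.8, 61.4 and 55.1 CPM in members of Cdk2-Y15S, Cdk2-HET and Cdk2-WT, against 60.04, 55.3 and 44.0 CPM at 0 UMIs (log2 0.18, SE 0.10, adjusted p = 0.33, edgeR). A point mutation need not change the level of its transcript, so Cdk2 does not check the labels.

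**Figure D5:**
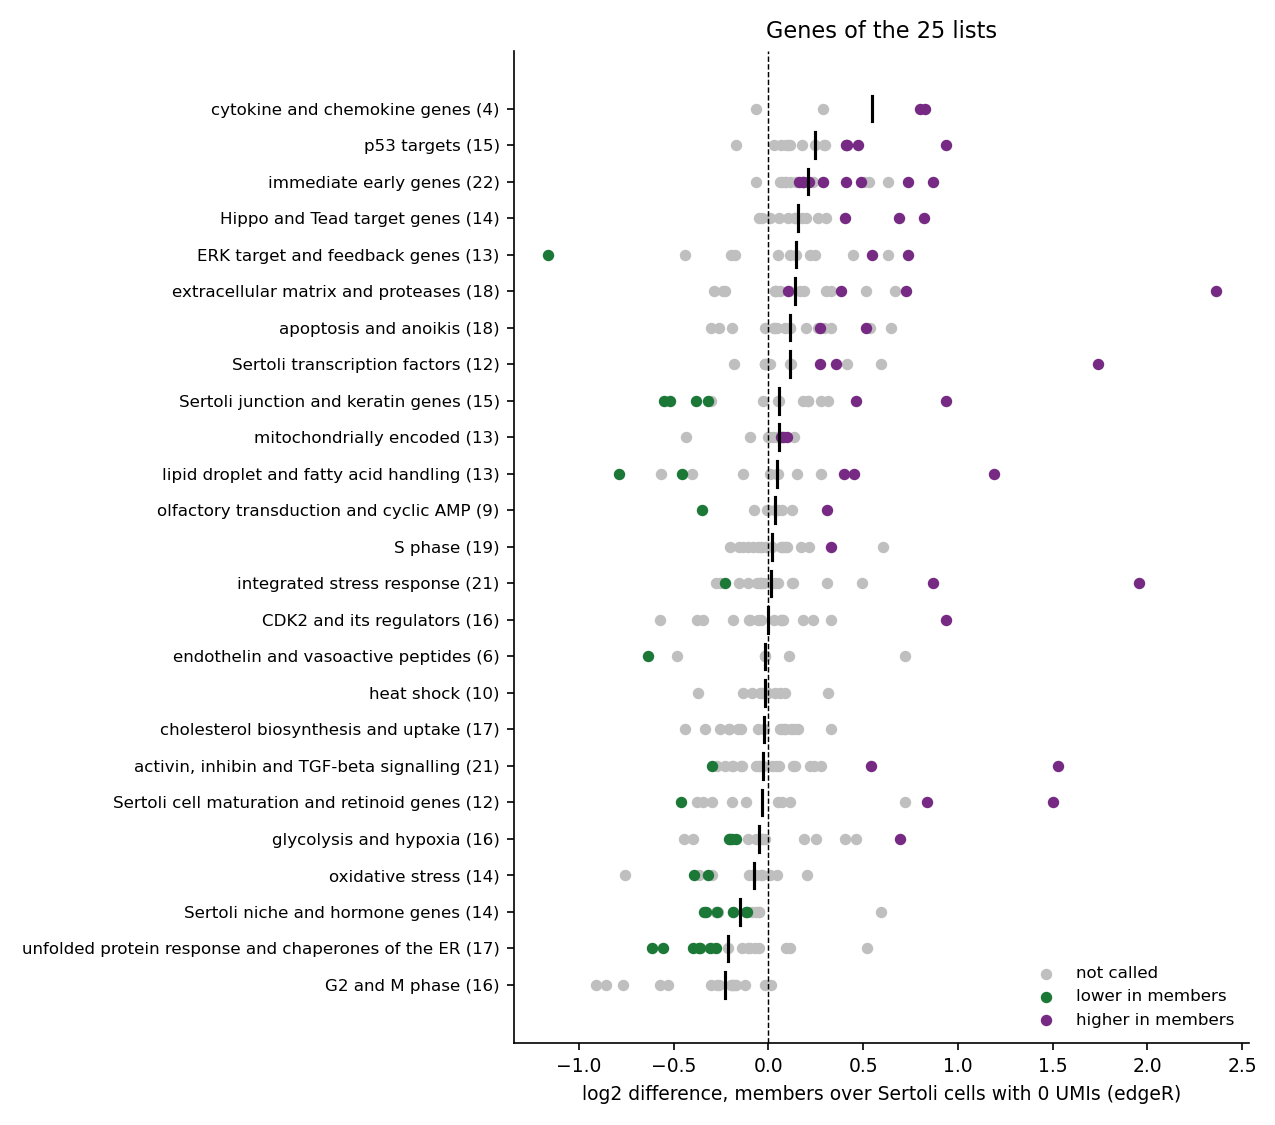
Log2 difference, members over Sertoli cells with 0 UMIs (x axis, edgeR), of each tested gene in the 25 lists (rows, with the number tested), coloured by call; black bars are medians. The lists of p53 targets (median 0.25) and immediate early genes (0.21) lie to the right and those of endoplasmic reticulum chaperones (-0.21) and G2 and M phase (-0.23) to the left, against -0.002 for all genes tested.

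Between genotypes, members were compared as sums of 1 library each, with counting error only. Among 8687 genes with at least 50 UMIs, 148 (1.7%) were at least 2-fold higher and 92 (1.06%) at least 2-fold lower in Cdk2-Y15S than in Cdk2-WT members. In Sertoli cells with 0 UMIs the same counts were 91 (1.19%) and 76 (0.995%) of 7637. For Cdk2-HET over Cdk2-WT they were 51 (0.574%) and 48 (0.541%) of 8878 in members, and 39 (0.489%) and 51 (0.639%) of 7983 in cells with 0 UMIs.

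Several genes that lay far apart between libraries did so in both groups of Sertoli cells. Gchfr, which regulates GTP cyclohydrolase, stood at 88.7 CPM in Cdk2-Y15S members, 0.596 in Cdk2-HET and 0 in Cdk2-WT, and at 159, 0.416 and 0 CPM in cells with 0 UMIs. Rpl29, a ribosomal protein gene with many related sequences, stood at 452, 23.5 and 24.8 CPM in members and at 441, 30.8 and 25.3 CPM in cells with 0 UMIs. Whether the authors' counting split reads between these sequences was not tested. Trim12a and Ahcy were highest in Cdk2-Y15S in both groups, with log2 ratios of Cdk2-Y15S over Cdk2-WT of 3.14 and 3.09 in members and 3.78 and 2.59 in cells with 0 UMIs. Spata21 was lower in Cdk2-Y15S, at 1.56 CPM in members against 41.4 in Cdk2-HET and 45.9 in Cdk2-WT, and at 6.86, 67.4 and 58.6 CPM in cells with 0 UMIs. Qpct, a glutaminyl cyclase, stood at 61.5, 45.6 and 12.6 CPM in members and 65.8, 49.5 and 11.9 CPM in cells with 0 UMIs.

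The granule and alarmin genes Ngp, S100a8, S100a9 and BC100530 had most of their UMIs in Cdk2-WT members. S100a8, an alarmin of neutrophils, stood at 0.389 CPM in Cdk2-Y15S, 1.49 in Cdk2-HET and 57.3 in Cdk2-WT members. One Cdk2-WT cell gave 160 of the 231 S100a8 UMIs and 99 of the 139 Ngp UMIs were also in 1 cell, so these ratios describe very few cells.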

How the data were processed

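The authors deposited a matrix of counts (whole UMIs per gene and cell, 27998 genes) for all 3 libraries, with the library given by the barcode. Per the submitters' processing notes, Seurat, mm10 and Cell Ranger 2.1.0 were used, with no roles given. How cells were called and which annotation was counted is not stated. The authors' germ cell table, of Cdk2-Y15S and Cdk2-WT, was only searched for members. The members, the 5 genes and all gene lists were chosen with earlier results of these data known.

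UMIs were summed per library over members and over Sertoli cells with 0 UMIs of the 5 genes (Python 3.11.15, scanpy 1.11.5). The 6 sums were tested with edgeR 4.0.16 in R 4.3.3 (TMM, filterByExpr, quasi-likelihood test, library as block, Benjamini-Hochberg over all genes tested, called at 0.05), and the procedure was tested on simulated data. The 21 other genes of the rule set limits on Sertoli (Amh, Sox9, Cldn11, Inha, at least 3 UMIs), stromal (Col1a1, Col1a2, Col3a1, Dcn, at most 2), steroidogenic (Cyp11a1, Cyp17a1, Hsd3b1, at most 5), germ (Ddx4, Dazl, at most 1), M phase (Ube2c, Cenpf, Plk1, Cenpa, at most 3) and S phase genes (Rrm2, Tk1, Clspn, Tyms, at most 2).

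CPM scales a gene's UMIs to the total of the summed group, ratios between libraries add 0.5 UMI to each sum, and intervals (95% Poisson or Clopper-Pearson) cover counting error only. The p-values come from edgeR, which draws the spread of each gene between the 3 libraries toward a trend over all genes. A small p is therefore no measure of the spread of that gene alone. Hba-a1, with log2 ratios of -5.75 (Cdk2-Y15S), -1.38 (Cdk2-HET) and -6.63 (Cdk2-WT), had an adjusted p of 2.1e-42 (edgeR). Groups are said not to overlap when all 3 libraries of one lie above all 3 of the other. Named genes were the 5 rule genes, the 15 highest and 15 lowest called differences with at least 100 UMIs and the same direction in every library, up to 3 called genes each way per list, Cdk2, and the 5 (Cdk2-Y15S) or 3 (Cdk2-HET) most extreme genes each way against Cdk2-WT. Uncalled genes and further called list members given for context were chosen after their values were seen. Gene positions come from GENCODE M21. Alternatives were RLE factors, DESeq2 1.42.0, no filter, each library left out, no library block, a filter on cells (a minimum of 500 genes, mitochondrial UMIs up to 10%, no Scrublet doublets at an expected 6%), at least 3 UMIs, matched depth, other comparison cells, the rule without each gene, and cells thinned to 4000 UMIs. Doublets were otherwise kept; Scrublet called none of the members. A result for a listed gene is not reported here.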

Additional observations from a re-analysis of the deposited data

Results flagged for a closer look

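Sh3bgr was higher in members than in Sertoli cells with 0 UMIs in Cdk2-Y15S (log2 ratio of CPM 0.66) and Cdk2-HET (0.87), and not in Cdk2-WT (-0.071). Its members stood at 51.7 CPM in Cdk2-Y15S, 29.2 in Cdk2-HET and 2.98 in Cdk2-WT. Stk32c, a kinase gene, had ratios of -0.16 in Cdk2-Y15S, 1.61 in Cdk2-HET and 0.041 in Cdk2-WT, with members at 4.67, 22.0 and 3.22 CPM. The point values of the libraries thus lay on different sides of 0 for both genes. Those below 0 rested on few UMIs. Sh3bgr in Cdk2-WT had 12 in members and 8 at 0 UMIs, and Stk32c in Cdk2-Y15S had 12 and 9. The sign of these ratios is therefore uncertain. The difference between libraries was not tested, since each genotype has 1 library.

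Among cells with over 20 stromal UMIs and 0 UMIs of the Sertoli genes, a Fstl3 UMI was present in 3.90% in Cdk2-Y15S, 5.70% in Cdk2-HET and 10.3% in Cdk2-WT. In this set each of the other 4 rule genes stayed under 1%, although among all cells outside the Sertoli cells of the rule each was found in 4.95% to 13.7%.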

How the results depend on the processing

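The main test was paired by library: each library gave 1 sum of members and 1 of Sertoli cells with 0 UMIs, and was the block. Against 800 genes called by edgeR, DESeq2 called 153 (2406 adjusted p-values were not given), and leaving out 1 library left 477 (Cdk2-Y15S), 481 (Cdk2-HET) or 675 (Cdk2-WT). With no library block edgeR called 27, all higher and 0 lower (690 at an unadjusted p under 0.05). The other alternatives gave 497 (rule without Fstl3, matched on UMIs) to 1062 (rule without Edn1) calls, and none of the alternatives called a gene in the opposite direction. Of 1440 values of named genes, 1245 kept their direction and call, 193 lost the call, 1 gained it (Cdk2 without Edn1, 0.35) and 1 turned (Atf3 without Edn1, -0.033); 38 of 73 lost it in DESeq2 and 72 of 84 without the block. The losses in DESeq2 and without the block were not named gene by gene above. The cause of the losses was not tested.

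In single libraries, the gene read in cells chosen by the other 4 moved to 2.03 for Fstl3 (Cdk2-HET), and in Cdk2-Y15S to 0.44 for Gdf15, 2.098 for Cidea, 0.66 for Omp and 0.74 for Edn1. The share of members was 29.7%, 30.6% and 35.7% (Cdk2-Y15S, Cdk2-HET, Cdk2-WT) after thinning, 24.3%, 24.7% and 26.3% at 3 UMIs and 8.56%, 10.3% and 12.4% of all cells, and the median ratio of co-detection was 1.45 after thinning. With 100 UMIs as the minimum, 67 genes were 2-fold higher and 45 lower in Cdk2-Y15S than in Cdk2-WT members, and 19 and 22 in Cdk2-HET. At 1.5-fold with the minimum of 50 UMIs the counts were 750 higher and 385 lower in Cdk2-Y15S, and 362 and 229 in Cdk2-HET. With 1 library per genotype and sums as low as 100 UMIs, small differences in low genes were not detectable.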
